A study of Mus musculus with 6 samples.

Results

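Genes for acid and base transport in the intercalated cells of the kidney collecting duct, with regulators of those cells, were followed in 6 RNA libraries of mouse kidney. The candidates were 8: Slc4a1, Slc4a9, Slc26a4, Rhbg, Rhcg, Foxi1, Hmx2 and Insrr. They were chosen with earlier results of these data known. A gene was kept when deposited rows of counts lay over its exons in the mouse assembly GRCm38, because the row names follow another assembly than the reads do. This left 5 members, Slc4a1, Rhbg, Slc26a4, Slc4a9 and Insrr, of 9519 genes that could be read by position. The libraries were made from whole kidney of C57BL/6 mice, an inbred laboratory strain, at postnatal day 21. Labelled acute renal failure, a rapid loss of kidney function, were 3 libraries whose titles call them treat, and labelled healthy were 3 whose titles call them control. How renal failure was brought about, and whether each library came from its own animal, are not given in the sources used here, so a p-value here reflects only how these libraries vary, which may be technical. The names of the deposited files call the same groups mutant and WT, but no mutation is given in the labels, so a difference of genotype and the labelled diagnosis cannot be told apart in any value below. The file headers name runs of a sequence archive as the source of the alignments, and whether those reads were made for this study was not tested. The groups are called ARF-labelled and healthy-labelled.

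Intercalated cells adjust the acid and base content of urine. The acid-secreting type A cell pumps protons into the urine with a vacuolar proton pump and returns bicarbonate to the blood through the basolateral chloride-bicarbonate exchanger encoded by Slc4a1 (AE1). The base-secreting type B cell passes bicarbonate into the urine through pendrin, the apical exchanger encoded by Slc26a4, and carries the exchanger AE4, encoded by Slc4a9, on its basolateral side. Rhbg encodes a basolateral ammonia transporter and Rhcg its relative at the apical side, which together let ammonia carry acid into the urine. Insrr encodes a receptor related to the insulin receptor that is activated by alkaline surroundings. Foxi1 is the transcription factor needed to form intercalated cells, and Hmx2 encodes a homeobox transcription factor. Slc4a1 is also the gene of band 3, the main anion exchanger of the red blood cell, whose transcript starts upstream of the kidney transcript.

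The levels of the members rest on parts of their exons, and those parts differ from gene to gene, so that levels of different genes cannot be compared. Slc4a1 (chromosome 11, 102348824 to 102366203, minus strand) was counted over 1270 of 4545 exon bases, under the name Itga2b. Of the 20 exons of its transcript the row touched 9, from exon 7 to exon 20, all downstream of the start that distinguishes the red cell transcript from the kidney one. These counts therefore do not separate the kidney form from the red cell form. Rhbg (chromosome 3, 88242874 to 88254709, minus strand) was read through 313 of 1937 exon bases, in rows named Smg5 and Tmem79 that lie over exons 9 and 10 of 10. Slc26a4 (chromosome 12, 31519827 to 31559969, minus strand) was read through 320 of 3075 bases, all coding, in the row named Cbll1. Insrr (chromosome 3, 87796951 to 87816101, plus strand) was read through 361 of 5102 bases in the row named Hdgf, which also lies within introns of Pear1, a gene on the other strand. The rows also cover introns of the members, among them 2160 bases in Slc4a1 and 3687 in Slc26a4, so reads of unspliced RNA can be included. Parts of the rows lie outside the genes: 2024 of 5454 bases for Slc4a1, 2129 of 2873 for Insrr, 5739 of 6956 (Smg5 row) and 2666 of 2912 (Tmem79 row) for Rhbg, and 3548 of 4261 (Cystm1 row) and 324 of 1109 (Pfdn1 row) for Slc4a9. Of the coding and long non-coding RNA genes used here, only the member has exon bases under these rows. Other kinds of annotated gene were not checked, and reads from elsewhere in a row are counted with the member.

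For 3 members the exon with the most counted bases among those that are coding throughout is shown to give the stretch of transcript that the counts stand for, on the transcript's strand. Capitals mark the bases inside a counted row and lower case those outside it. They are exon 17 of Slc4a1 (chr11:102352439-102352692, minus strand), exon 9 of Rhbg (chr3:88243593-88243666, minus strand) and exon 13 of Slc26a4 (chr12:31535250-31535356, minus strand), from GENCODE M21 transcripts on GRCm38.
Slc4a1 exon 17: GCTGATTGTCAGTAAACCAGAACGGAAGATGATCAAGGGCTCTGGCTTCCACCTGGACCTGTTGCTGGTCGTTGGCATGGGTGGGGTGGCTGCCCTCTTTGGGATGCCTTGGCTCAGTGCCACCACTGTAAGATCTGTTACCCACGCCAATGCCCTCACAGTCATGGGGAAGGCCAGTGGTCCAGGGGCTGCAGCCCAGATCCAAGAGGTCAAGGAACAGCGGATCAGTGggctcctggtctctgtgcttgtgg
Rhbg exon 9: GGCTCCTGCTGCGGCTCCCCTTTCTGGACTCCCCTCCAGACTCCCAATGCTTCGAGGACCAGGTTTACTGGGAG
Slc26a4 exon 13: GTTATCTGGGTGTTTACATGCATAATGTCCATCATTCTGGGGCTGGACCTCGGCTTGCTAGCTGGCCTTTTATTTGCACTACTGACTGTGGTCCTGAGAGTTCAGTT
Counted in full were the exons of Rhbg and Slc26a4 shown here, whereas 230 of the 254 bases of the Slc4a1 exon were counted.

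The promoter of Slc26a4 is shown because Slc26a4 is a known target of Foxi1, a forkhead factor whose own level could not be read here. It is the only promoter found for the 5 members in the RefSeq table used (GRCm38.p6, chr12:31559935-31560234, minus strand). Capitals mark matches on either strand to TATAAA, the TATA box, and to AAACA, the core letters bound by forkhead factors; no marked matches overlap.
Slc26a4 promoter: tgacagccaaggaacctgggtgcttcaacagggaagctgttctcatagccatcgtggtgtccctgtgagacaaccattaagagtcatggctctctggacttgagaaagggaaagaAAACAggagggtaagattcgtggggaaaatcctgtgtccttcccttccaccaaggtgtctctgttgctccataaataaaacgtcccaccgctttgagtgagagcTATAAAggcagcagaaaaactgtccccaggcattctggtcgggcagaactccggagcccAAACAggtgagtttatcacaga
TATAAA matched once, 31 bases before the transcript start, and matches to it occur in 13.6% of 32851 promoters of this length. AAACA matched at 2 places, 135 bases before and 28 bases after the transcript start, and is in 50.5% of those promoters. A match is a description of letters and not a bound site.

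Every member was higher in the ARF-labelled libraries, and for none did the groups overlap. Tested with the quasi-likelihood method of edgeR (Benjamini-Hochberg adjustment over 5246 genes), all 5 passed an adjusted p of 0.05; 25.1% of all genes tested were called higher and 24.9% lower. In 40.0% of the genes tested every ARF-labelled library stood above every healthy-labelled one in CPM, the count scaled to the library total. The median log2 fold change (ARF-labelled minus healthy-labelled) was 1.43 over the 5 members and 0.01 over all genes tested. All readable members also passed the filter on low counts. In whole-kidney RNA, more cells of a type and more RNA per cell cannot be told apart.

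**Figure D1:**
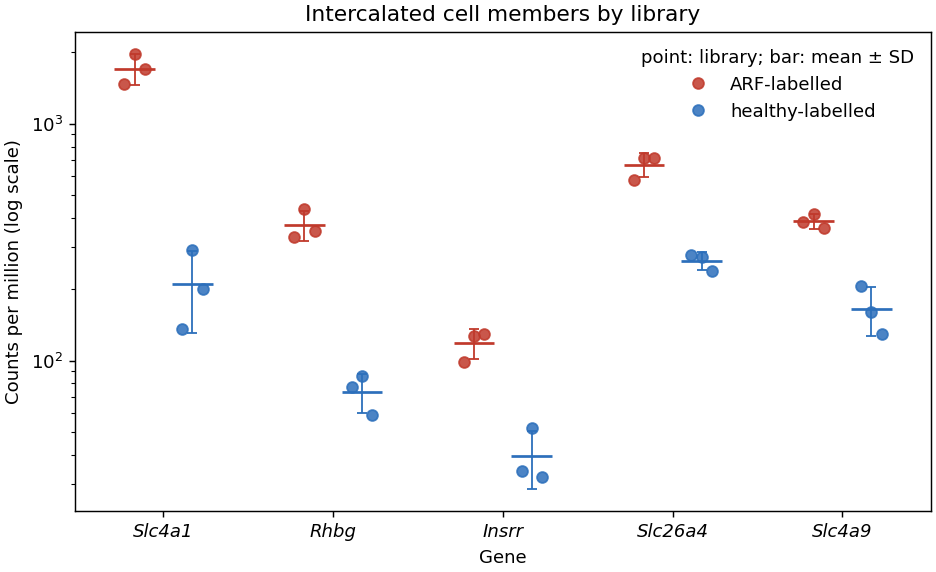
Levels in CPM (log scale) of the 5 members in each library, with the 3 ARF-labelled libraries left of the 3 healthy-labelled ones; points are libraries and bars the mean ± SD (n = 3). The groups do not overlap for any member, and Slc4a1 has the widest gap, with its lowest ARF-labelled library at 1464 CPM and its highest healthy-labelled library at 293 CPM.

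Slc4a1, the type A exchanger, changed most among the members. It had 7988, 10871 and 10474 counts in the ARF-labelled libraries, against 778, 842 and 725 in the healthy-labelled ones. As CPM these were 1464, 1967 and 1692 CPM in the ARF-labelled and 136, 293 and 199.7 CPM in the healthy-labelled libraries. The groups lay far apart, and the healthy-labelled values spread more widely for their level. The log2 fold change was 2.86 (SE 0.27, edgeR adjusted p = 7.4e-05), a 7.28-fold higher level that ranked 49 of 5246 genes.

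Rhbg, the ammonia transporter, came next. It stood at 333, 434.5 and 351 CPM in the ARF-labelled libraries, against 77.6, 85.6 and 58.7 CPM in the healthy-labelled ones. All ARF-labelled values lay at least 3.89 times above the healthy-labelled values. The log2 fold change was 2.16 (SE 0.17, edgeR adjusted p = 3.78e-05), or 4.48-fold. Both of its rows gave a rise when fitted on their own among all deposited rows: on the log2 scale the Tmem79 row, over the last exon, was higher by 2.35 (SE 0.18) and the Smg5 row, over exon 9, by 1.97 (SE 0.17). Of all deposited rows tested, 23.6% were called higher.

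The type B exchangers Slc26a4 and Slc4a9 were higher by less. Slc26a4, which encodes pendrin, stood at 581, 717 and 715 CPM in the ARF-labelled libraries and at 279.7, 274 and 238 CPM in the healthy-labelled ones (log2 fold change 1.17, SE 0.13, edgeR adjusted p = 0.000201). Slc4a9 (chromosome 18, 36528147 to 36556273, plus strand), which encodes AE4, was counted over 225 of 3443 exon bases, all coding, in exons 15 and 16 of 20 under the names Cystm1 and Pfdn1. It had 2089, 2306 and 2235 counts in the ARF-labelled libraries and 1177, 459 and 472 counts in the healthy-labelled ones, a mean of 387 ± 28.4 CPM in the ARF-labelled and 165 ± 38.4 CPM in the healthy-labelled libraries (SD, n = 3 each; log2 fold change 1.05, SE 0.17, edgeR adjusted p = 0.0014). As folds these were 2.25 for Slc26a4 and 2.07 for Slc4a9, and healthy-labelled replicate 1 was the highest of its group for both. The Pfdn1 row of Slc4a9 alone was higher by 1.21 on the log2 scale (SE 0.18), against 0.91 (SE 0.17) for the Cystm1 row alone. Insrr, the alkali-activated receptor, had 98.8, 127 and 129.5 CPM in the ARF-labelled libraries, against 34.3, 51.9 and 32.2 CPM in the healthy-labelled ones. Its log2 fold change was 1.43 (SE 0.20, edgeR adjusted p = 0.000505), and it was the member with the fewest counts, 2044 in the ARF-labelled and 462 in the healthy-labelled libraries together.

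**Figure D2:**
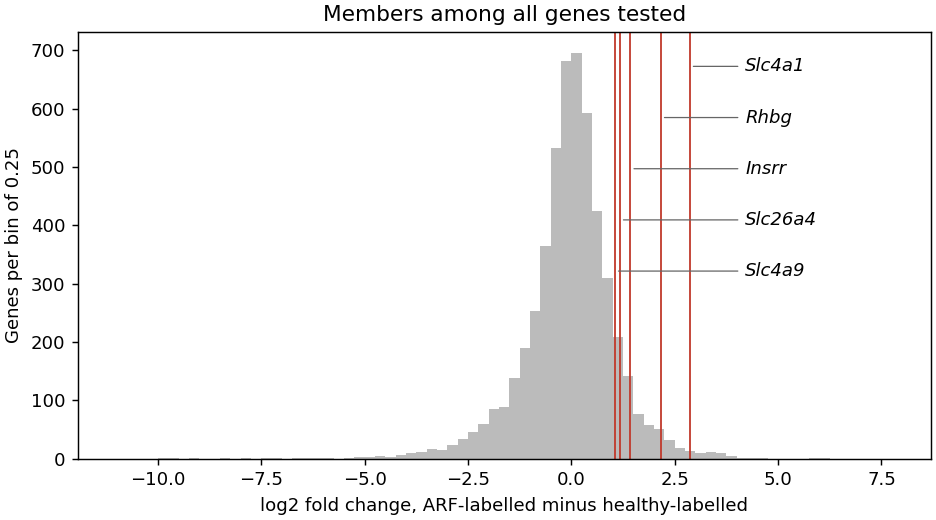
Histogram of the log2 fold change (ARF-labelled minus healthy-labelled) of all 5246 genes tested, in bins of 0.25, with a red line at each member. The members lie on the right side of the distribution, from 1.05 for Slc4a9 to 2.86 for Slc4a1.

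For 3 candidates no level can be given. No deposited row overlapped an exon of Rhcg or Hmx2. Foxi1 shared its row, named Dock2, with another gene: 141 of the row's exon bases were those of Foxi1 and 209 those of Dock2, a gene of blood cells. That row held 37.4, 53.2 and 44.4 CPM in the ARF-labelled libraries, against 17.3, 15.0 and 17.9 CPM in the healthy-labelled ones. These counts cannot be divided between Foxi1 and Dock2.

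Whether the members rose by different amounts was asked with ratios of their counts within a library, which do not depend on how libraries are scaled. The 5 members form 10 pairs, and with 3 libraries against 3 the exact two-sided permutation test cannot give a p below 0.1. In each pair the member with the larger fitted log2 fold change in these same libraries was the numerator. That a difference lies above 0 therefore largely follows from this order and is no separate result. The ratio of Slc4a1 to Rhbg counts was 4.39, 4.53 and 4.82 in the ARF-labelled libraries, against 1.76, 3.42 and 3.40 in the healthy-labelled ones. The groups did not overlap, but healthy-labelled replicate 1 stood apart from the others. On the log2 scale the ratio averaged 2.19 ± 0.07 in the ARF-labelled and 1.45 ± 0.55 in the healthy-labelled libraries (SD, n = 3 each), a difference of 0.74 (exact permutation p = 0.1, and 0.143 adjusted over the 10 pairs). Without healthy-labelled replicate 1 the difference was 0.42.

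The ratio of the type A exchanger to either type B exchanger was higher in every ARF-labelled library than in any healthy-labelled one. Slc4a1 counts were 2.52, 2.75 and 2.36 times those of Slc26a4 in the ARF-labelled libraries, against 0.487, 1.07 and 0.839 times in the healthy-labelled ones. The difference between groups was 1.74 on the log2 scale for Slc4a1 over Slc26a4 and 1.83 for Slc4a1 over Slc4a9, with exact permutation p = 0.1 for both. Rhbg also gained on the type B genes, by 1.00 over Slc26a4 and 1.09 over Slc4a9, and on Insrr by 0.73, each with exact permutation p = 0.1. Slc4a1 gained 1.48 on Insrr (exact permutation p = 0.1). In all 7 of these pairs the groups did not overlap, and each had the smallest p that the design allows, 0.143 when adjusted, so none passes 0.05. The other 3 pairs overlapped: Slc26a4 over Slc4a9 differed by 0.09 (exact permutation p = 0.6), Insrr over Slc26a4 by 0.27 (exact permutation p = 0.4) and Insrr over Slc4a9 by 0.36 (exact permutation p = 0.4).

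**Figure D3:**
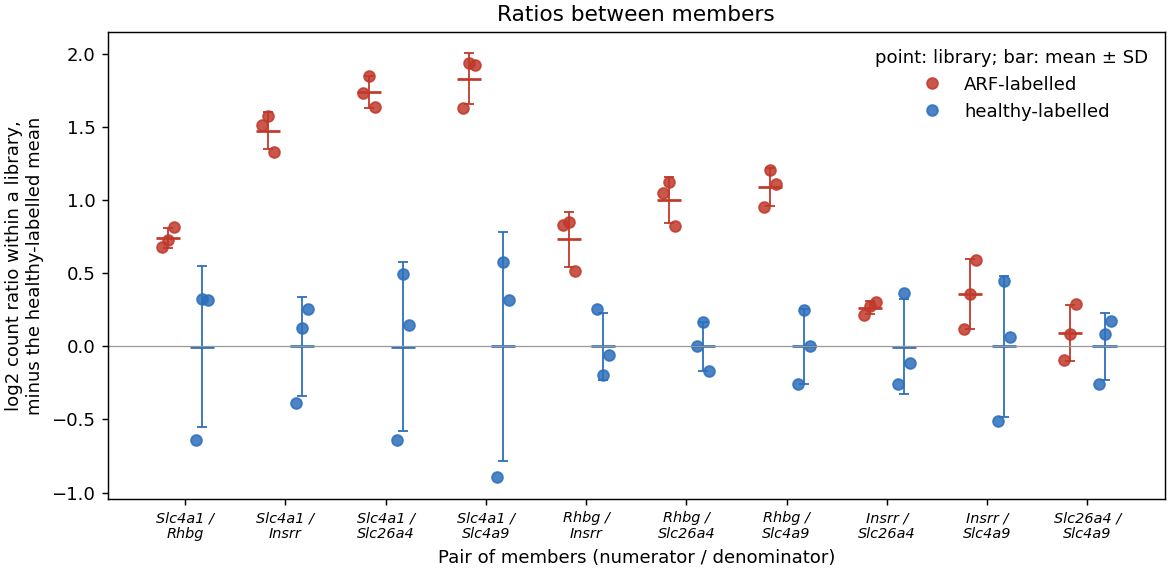
Log2 ratio of the counts of 2 members within each library, for all 10 pairs, drawn relative to the mean of the healthy-labelled libraries; ARF-labelled libraries are left, points are libraries and bars the mean ± SD (n = 3). In each pair the member with the larger fitted log2 fold change is on top. The groups lie apart in the 7 pairs with Slc4a1 or Rhbg on top and overlap in the 3 pairs among Insrr, Slc26a4 and Slc4a9.

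Since red blood cells also carry Slc4a1 transcripts, erythroid markers are given beside it. Of 24 listed, 14 could be read and 6 passed the filter, with 4 called lower and 2 called higher. Over all genes tested, 24.9% were called lower and 25.1% higher. Hbb-bs, a beta globin gene, stood at 24.0, 72.8 and 44.4 CPM in the ARF-labelled libraries, against 146, 732 and 432 CPM in the healthy-labelled ones (log2 fold change -3.37, SE 0.59, edgeR adjusted p = 0.00187). In both groups its libraries had the same order as for Slc4a1, lowest in replicate 1 and highest in replicate 2. Alas2, the erythroid enzyme that starts haem synthesis, had 4.76, 6.15 and 6.62 CPM in the ARF-labelled libraries, against 17.2, 56.4 and 43.0 CPM in the healthy-labelled ones (log2 fold change -2.86, SE 0.41, edgeR adjusted p = 0.000634). Alas2 had the library order of Slc4a1 in the healthy-labelled group only, and the member Rhbg had it in the ARF-labelled group only. Ank1, the ankyrin that ties band 3 to the red cell skeleton, was lower as well (log2 fold change -4.09, SE 0.38, edgeR adjusted p = 7.4e-05), on 7 counts in the ARF-labelled and 80 in the healthy-labelled libraries. Ank1 passed the filter on low counts through the healthy-labelled libraries only, so its direction was fixed by that filter.

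The remaining erythroid markers were less uniform. Tspan33, a membrane protein gene whose groups overlapped, was lower (log2 fold change -0.79, SE 0.23, edgeR adjusted p = 0.0197), but not called without ARF-labelled replicate 1, ARF-labelled replicate 2 or healthy-labelled replicate 1 (edgeR adjusted p 0.0626, 0.0711 and 0.0505). Sptb, a beta spectrin gene, was higher (log2 fold change 1.77, SE 0.21, edgeR adjusted p = 0.000259), and stood at -0.22, not called, when a gene needed only 0.5 of the exon bases under a row. Klf1, an erythroid transcription factor, was higher on 59 counts in the ARF-labelled and 16 in the healthy-labelled libraries (log2 fold change 1.16, SE 0.39, edgeR adjusted p = 0.0349), and was not called in any fit that left out 1 library. Klf1 passed the filter on low counts through the ARF-labelled libraries only, so its direction was fixed by that filter. The 8 markers that were read but not tested held too few counts for the filter, and Hbb-bt had 0 in every library. Summed over the 14 readable markers, levels ranged from 307 to 395 CPM in the ARF-labelled and from 696 to 1083 CPM in the healthy-labelled libraries. Tspan33 alone supplied 247, 223 and 301 CPM of the sum in the ARF-labelled libraries, against 517, 271 and 390.0 CPM in the healthy-labelled ones. Without it the sums were 59.8, 108 and 93.5 CPM in the ARF-labelled libraries and 179, 812 and 496 CPM in the healthy-labelled ones, an alternative chosen after the data were seen.

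Set against that sum within each library, Slc4a1 counts were 4.77, 5.93 and 4.29 times the erythroid counts in the ARF-labelled libraries and 0.196, 0.271 and 0.225 times in the healthy-labelled ones. The log2 difference between groups was 4.44, and the groups did not overlap (exact permutation p = 0.1, the smallest this design allows). With Tspan33 left out of the sum the ratios were 24.5, 18.1 and 18.1 in the ARF-labelled and 0.761, 0.361 and 0.403 in the healthy-labelled libraries, a log2 difference of 5.38 (exact permutation p = 0.1). Either sum was lower in the ARF-labelled libraries, but the sums are not independent of each other. Without Tspan33 the sum in the healthy-labelled libraries was mostly Hbb-bs, at 146, 732 and 432 of 179, 812 and 496 CPM. Sptb and Klf1 were called in the other direction. How many of the Slc4a1 counts in either group came from blood was not tested.

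**Figure D4:**
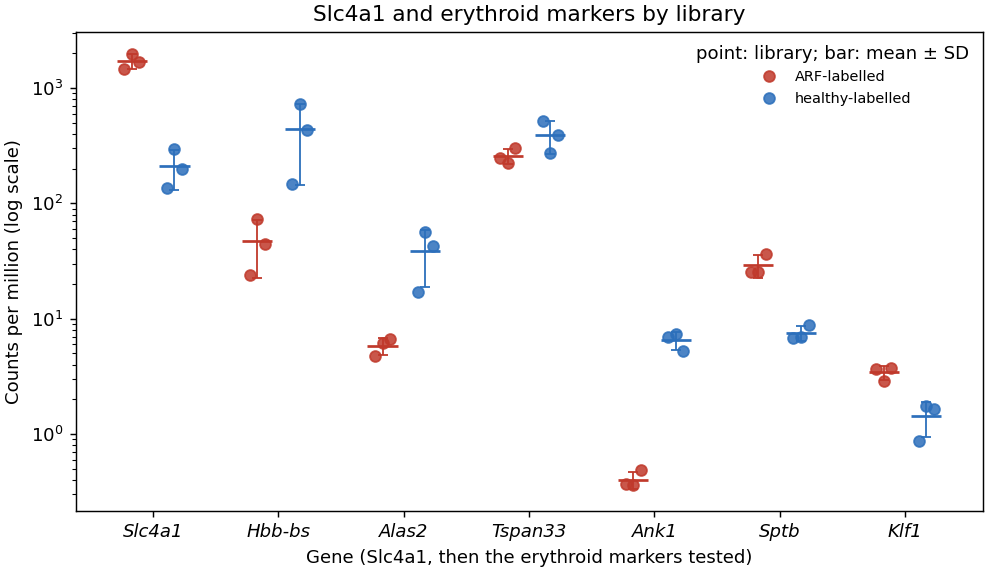
Levels in CPM (log scale) of Slc4a1 and of the 6 erythroid markers tested, with ARF-labelled libraries left of healthy-labelled ones; points are libraries and bars the mean ± SD (n = 3). Slc4a1, Sptb and Klf1 are higher in the ARF-labelled libraries, and Hbb-bs, Alas2, Tspan33 and Ank1 lower; Sptb changes sign, uncalled, when a gene needs only 0.5 of the exon bases under a row.

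Other markers of the intercalated cell moved with the members. The list held 20 genes, of which 11 could be read, 5 of them the members, and all 11 were called higher. Over all genes tested, 25.1% were called higher. The 6 besides the members were Hepacam2, Oxgr1, Aqp6, Atp6v0d2, Atp6v0a4 and Atp6v1b1, with a median log2 fold change of 2.32. Atp6v1b1 passed the filter on low counts through the ARF-labelled libraries only, so its direction was fixed by that filter. Hepacam2, a cell adhesion gene, stood at 827, 923 and 1032 CPM in the ARF-labelled libraries, against 147, 139 and 124 CPM in the healthy-labelled ones (log2 fold change 2.59, SE 0.14, edgeR adjusted p = 7.68e-06). Aqp6, a water channel of type A cells, stood at 623, 555 and 651 CPM in the ARF-labelled libraries, against 94.4, 162 and 104 CPM in the healthy-labelled ones (log2 fold change 2.18, SE 0.20, edgeR adjusted p = 6.61e-05). These 2 genes were picked for naming after their values were seen.

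Markers of neighbouring cells moved as well. All 4 principal cell markers read, of 12 listed, were higher, with sums of 9488 to 11310 CPM in the ARF-labelled and 3350 to 4069 CPM in the healthy-labelled libraries. Of 6 proximal tubule markers read, of 16 listed, 5 were lower and 1 was not called, with sums of 2147 to 3434 CPM in the ARF-labelled and 4073 to 6364 CPM in the healthy-labelled libraries. Beside these counts, 25.1% of all genes tested were called higher and 24.9% lower. The principal cell sums were mostly Aqp3, at 7433 to 9306 CPM in the ARF-labelled and 2943 to 3459 CPM in the healthy-labelled libraries. Lrp2, the proximal tubule marker not called, made up most of that sum in the ARF-labelled libraries, at 1410 to 2648 CPM. In the healthy-labelled libraries Lrp2 stood at 1123 to 1807 CPM. The urothelial gene Upk3a was higher (log2 fold change 1.86, SE 0.28) and Krt5 was not called (-0.57, edgeR adjusted p = 0.296). None of these readable markers was at 0 in any library. The part of cell composition in the members' rise was not tested.

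The wider set of acid-base genes did not move as a whole. Of 80 genes listed by role, 39 could be read and 34 were tested, of which 16 were higher, 8 lower and 10 not called. Without the members, 11 of 29 were higher and 8 lower, with a median log2 fold change of 0.12. The share called higher in all genes tested was 25.1%, and the share lower 24.9%.

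**Figure D5:**
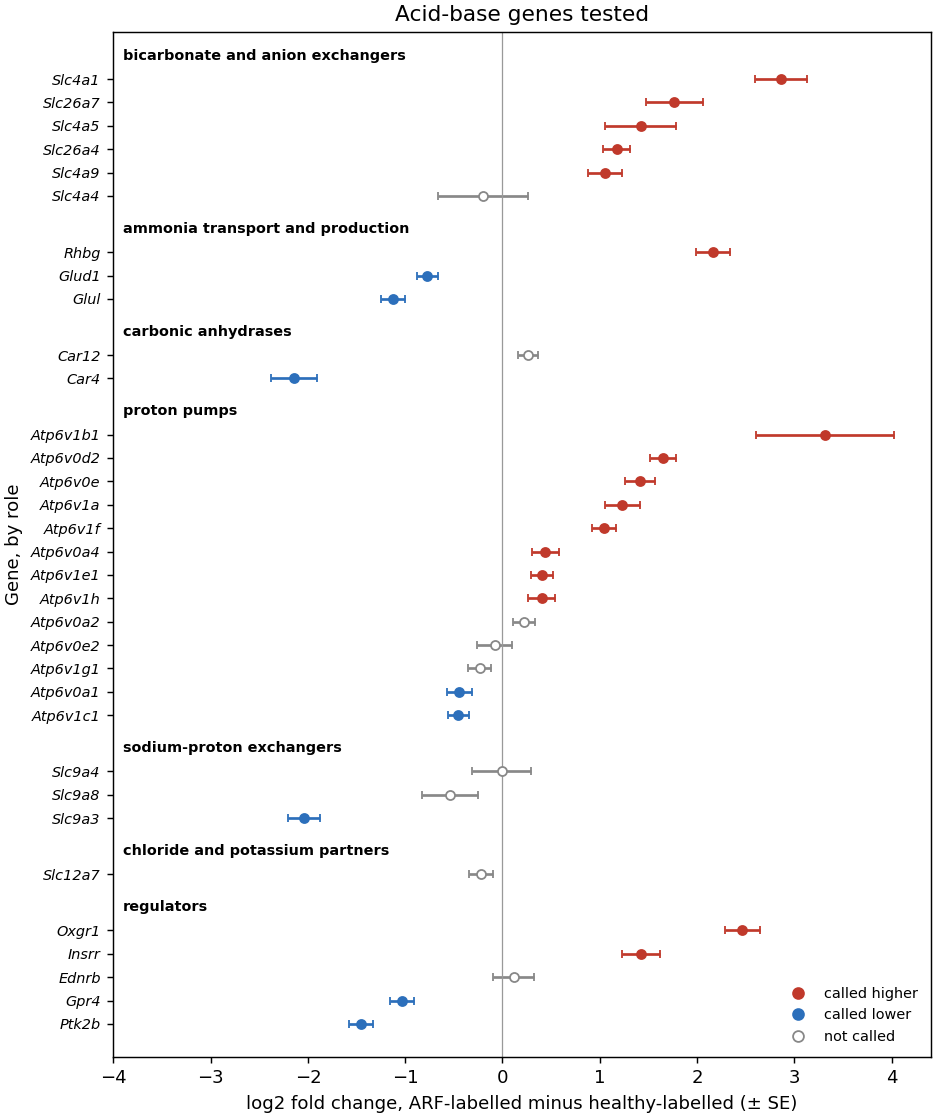
Log2 fold change (ARF-labelled minus healthy-labelled, ± SE) of 33 of the acid-base genes tested, grouped by role. Red points were called higher, blue points lower and open points not called. The bicarbonate and anion exchangers lie mostly on the right. Glul, Glud1, the carbonic anhydrases and the sodium-proton exchangers lie mostly on the left or near 0.

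Among bicarbonate and anion exchangers 5 of 6 tested were higher and none lower, against 25.1% higher and 24.9% lower among all genes tested. Besides the 3 members the higher ones were Slc26a7, an exchanger of type A cells of the outer medulla (log2 fold change 1.77, SE 0.30, edgeR adjusted p = 0.00145), and Slc4a5, a sodium-bicarbonate cotransporter (1.42, SE 0.37, edgeR adjusted p = 0.0118). Slc26a7 stood at 299, 234 and 173 CPM in the ARF-labelled libraries, against 41.9, 92.2 and 52.3 CPM in the healthy-labelled ones. Slc4a4, the sodium-bicarbonate cotransporter of the proximal tubule, was not called at -0.20 (edgeR adjusted p = 0.748), on 66 counts in the ARF-labelled and 45 in the healthy-labelled libraries.

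Genes of ammonia metabolism went against Rhbg. Glul, glutamine synthetase, stood at 251.5, 234 and 297.5 CPM in the ARF-labelled libraries, against 465, 527 and 518 CPM in the healthy-labelled ones (log2 fold change -1.12, SE 0.12, edgeR adjusted p = 0.000157). Glud1, glutamate dehydrogenase, which releases ammonia, was lower by a log2 fold change of -0.77 (SE 0.11, edgeR adjusted p = 0.000603), read through 49 exon bases. Car4, a membrane-bound carbonic anhydrase, was lower (-2.14, SE 0.23, edgeR adjusted p = 0.000161). Car12, another membrane-bound form, was not called at 0.27 (edgeR adjusted p = 0.0594), though it was with scaling by library totals (0.44, edgeR adjusted p = 0.0057) and with DESeq2 (0.27, DESeq2 adjusted p = 0.0391). Slc9a3, the sodium-proton exchanger of the proximal brush border, was lower (-2.04, SE 0.16, edgeR adjusted p = 3.66e-05), while Slc9a8 (-0.54) and Slc9a4 (-0.01) were not called.

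Of 13 proton pump subunits tested, 8 were higher and 2 lower, against 25.1% higher and 24.9% lower among all genes tested. Atp6v0d2 (log2 fold change 1.65, SE 0.14) and Atp6v1a, the catalytic subunit (1.23, SE 0.18), were higher, as was Atp6v1b1, the subunit form of intercalated cells, on 66 counts in the ARF-labelled and 4 in the healthy-labelled libraries. Healthy-labelled replicate 1 held all 4 of those counts and the other healthy-labelled libraries had 0, so its fitted log2 fold change of 3.32 rests on that library, and it passed the filter on low counts through the ARF-labelled libraries only. Atp6v0e was higher (1.41, SE 0.16) but stood at -0.24 and was not called when at least 100 exon bases were required of a row. Atp6v0a2 (0.22) and Atp6v0e2 (-0.08) were not called, although with scaling by library totals Atp6v0a2 was (0.40, edgeR adjusted p = 0.0156). When 1 library was left out, calls were lost for Atp6v1e1 (edgeR adjusted p up to 0.0764, without healthy-labelled replicate 3), Atp6v1h (up to 0.177, without healthy-labelled replicate 3), Atp6v0a4 (up to 0.0914, without healthy-labelled replicate 3) and Atp6v0a1 (up to 0.061, without ARF-labelled replicate 1). Atp6v0a1 was also not called with scaling by library totals (-0.27, edgeR adjusted p = 0.0913), nor Atp6v1h with a replicate block (0.40, edgeR adjusted p = 0.0654).

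Among 5 regulators tested, Oxgr1, the receptor for alpha-ketoglutarate on type B cells, was higher beside Insrr. It stood at 94.8, 76.2 and 95.5 CPM in the ARF-labelled libraries, against 16.8, 14.6 and 10.7 CPM in the healthy-labelled ones (log2 fold change 2.47, SE 0.18, edgeR adjusted p = 2.88e-05). Ptk2b, a tyrosine kinase (-1.45, SE 0.12), and Gpr4, a proton-sensing receptor (-1.03, SE 0.12), were lower. Ednrb, an endothelin receptor, was not called (0.12), nor was Slc12a7, a potassium-chloride cotransporter gene (-0.22).

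Likeness of profile was measured as the root mean square difference of centred log2 CPM over the 6 libraries, among 3942 other genes with a mean of at least 10 CPM. Nearest to Slc4a1 were Pgr (0.24), Neurl1b (0.25), Gpr37 (0.26), Acot3 (0.30) and Ranbp3l (0.30). Nearest to Rhbg were Nupr1 (0.09), Racgap1 (0.10), Plekhd1 (0.11), Ntn4 (0.12) and Exph5 (0.15). No gene came as close to Slc4a1 as the nearest ones did to Rhbg. For Slc26a4 they were Cnst, Zfp398, Rab3d, Trmt10b and Ppil1, all between 0.055 and 0.077. Slc4a9 was nearest to Rrm1, Nudt1, Plcb4, Fancc and Mta3, between 0.058 and 0.11, and Insrr to Ank, Ttll5, Apbb1, Lrch4 and Plcg2, between 0.11 and 0.16. Among the members themselves Slc26a4 and Slc4a9 were the closest pair, at 0.18, and Slc4a1 and Slc4a9 the farthest, at 1.03. None of these nearest genes is in the acid-base or marker lists.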

How the data were processed

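Kidney RNA was sequenced in 6 libraries, 3 ARF-labelled and 3 healthy-labelled, grouped by the diagnosis in the labels; total counts were 5455886 to 6191479 in the ARF-labelled and 2873370 to 5710010 in the healthy-labelled libraries. RNA was extracted with Trizol and libraries were made with a TruSeq kit, per the labels' protocols. The authors deposited counts per row and library; they come from featureCounts 2.0.1 run on exons grouped by gene name without strand, per the file headers, which also name archive runs as the source of the reads. Bowtie 0.12.2 and mm9 stand in the submitters' processing notes; the aligner behind these counts was not given in the sources used here. A deposited series table also holds a score that the authors named FPKM, which was not used here.

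Row intervals were intersected (bedtools 2.31.1, Python 3.11.15, pandas 2.3.3) with exons of GENCODE M21 basic transcripts (GRCm38) of coding and long non-coding RNA genes, read-through transcripts left out. A gene received a row when it held 0.9 or more of the exon bases under it, and 25 or more bases, and rows of a gene were added. This gave 12401 of 53546 rows, 9519 genes and 63.0% of counts. Reads of genes on the other strand can be included.

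Genes were tested with the quasi-likelihood method of edgeR 4.0.16 (R 4.3.3, two-sided), with TMM, filterByExpr, library totals from every row and no covariate beside group. The fit was also run on simulated data with 200 changed genes, far fewer than the 1319 and 1305 called here. That run cannot show how the scaling behaves when so many genes change. Called means a Benjamini-Hochberg adjusted p under 0.05 over 5246 genes. The SE is the log2 fold change divided by the square root of F. Ratios were tested with scipy 1.17.1. Over all genes the log2 fold change had a median of 0.01, and of 0.19 with scaling by library totals, so changes are relative to that shift; that scaling called 1749 genes higher and 1013 lower, against 1319 and 1305.

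The members, lists and tests were chosen with earlier results of these data known. Genes were named by this rule: readable candidates; per role, up to 4 called acid-base genes of largest change and up to 2 not called; erythroid markers tested; and the 5 nearest profiles per member. Outside it, Hepacam2, Aqp6, Aqp3, Lrp2, Upk3a, Krt5 and the proton pump subunits whose calls changed were named after their values were seen. Alternatives were other scalings, DESeq2 1.42.0, no filter, each library left out, a replicate block, other row thresholds and single rows. Some listed genes are counted in the totals but not reported here by name.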

Additional observations from a re-analysis of the deposited data

How the results depend on the processing

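All 5 members kept their direction and their call in every alternative run. Across them the log2 fold change ranged from 2.62 to 3.15 for Slc4a1, 1.97 to 2.35 for Rhbg, 1.28 to 1.62 for Insrr, 1.08 to 1.35 for Slc26a4 and 0.88 to 1.25 for Slc4a9, with the highest adjusted p at 0.00681. Between 13 and 18 acid-base genes were called higher and 6 to 8 lower, and 3 to 5 erythroid genes lower. Of the intercalated cell markers, 10 to 11 were called higher. Of the ratios between members, that of Slc26a4 to Slc4a9 changed sign: with 1 library left out it ranged from -0.037 to 0.186 on the log2 scale, below 0 when ARF-labelled replicate 3 (-0.007) or healthy-labelled replicate 1 (-0.037) was left out. The cause was not tested. That of Slc4a1 to Rhbg ranged from 0.42 to 0.90. Same-numbered libraries of the groups did not deviate together (correlations of -0.07, -0.22 and -0.29 for numbers 1, 2 and 3), so the numbers were not taken as pairs. With a replicate block the log2 fold changes were 2.91 for Slc4a1 and 2.17 for Rhbg, and 1135 genes were called higher and 1153 lower. Insrr, with 462 counts in the healthy-labelled libraries together, is the member most limited by depth. The settings for Slc26a4, Slc4a9 and Insrr, their ratios, the count of intercalated cell markers and the single rows were added after the data were seen.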

Other observations

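The deposited rows that carry the names of the candidate genes hold other reads or almost none. Summed over the 6 libraries, the row named Slc4a1 held 5 counts, that named Slc26a4 45, that named Rhbg 59, that named Foxi1 4, that named Rhcg 1 and that named Hmx2 0. The row named Slc4a9 held 7562 counts and lay mostly over exons of Sra1, and the row named Insrr held 3356 and lay over exons of Arhgef11.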
